A study of Homo sapiens with 12 samples.

Results

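The effect of TP63 knockdown that 2 head and neck squamous carcinoma lines share was taken from all 12 of the 12 arrays of the series. JHU-029 and FaDU, both established lines, received a lentiviral control vector (shControl) or a lentiviral shRNA against TP63 (shTP63), and RNA was collected 72 hours later from the cultures. Each of the 4 groups, JHU-029 shControl, JHU-029 shTP63, FaDU shControl and FaDU shTP63, held 3 arrays. The mean effect of a gene is the average of its shTP63 minus shControl differences in log2 intensity in JHU-029 and in FaDU, so each line weighs equally. A gene changed the same way in both lines where its mean effect passed an adjusted p of 0.05 and its 3 shTP63 arrays lay on the same side of its 3 shControl arrays in each line. The sources used here do not say how many hairpins were used, which p63 isoforms they target or whether the replicates were separate cultures. P-values therefore measure only the spread between these arrays, and TP63 itself was not analysed here.

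TP63 encodes p63, a transcription factor of the p53 family that maintains basal keratinocytes and is often gained or overexpressed in squamous carcinoma. It holds on the keratins, integrins and desmosomal cadherins that fasten basal cells to the matrix and to each other, and supports growth factor signalling. The series asks how p63 and ACTL6A, a subunit of SWI/SNF chromatin remodelling complexes, act on the Hippo pathway, the kinase cascade that restrains the coactivator YAP1.

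The median intensity of an array lay between 88.2 and 94.7. Arrays of 1 group correlated at 0.9933 to 0.9971. JHU-029 shTP63 replicate 1 correlated with its own group at no more than 0.9961 and with an array of another group at 0.9964. FaDU shControl replicates 1 and 2 carry an extra word in their titles that the other arrays lack. Replicate numbers follow the descriptions, 1 to 3 in every group, whereas the titles number the FaDU arrays of both groups 2 to 4, in the same order. Counts without these libraries are given below. Of 10 measured squamous markers, 9 lay above the array median in all 12 arrays, KRT5, KRT14 and SFN among them. Of the fibroblast, immune and endothelial markers, 9 of 13, 9 of 14 and 6 of 10 lay below it in all 12, PTPRC, PECAM1, DCN and LUM among them. In each of these lists 2 lay above it in all 12. These were COL1A1 and FBLN1, CD68 and NKG7, and CLDN5 and EGFL7. The sums below add linear intensities, so high members weigh the most. The summed intensity of the endothelial markers was 1205 to 1266 in FaDU shControl and 1654 to 1747 in FaDU shTP63. CDH5, a cadherin of that list, rose by 1.00 in FaDU. In JHU-029 these sums were 625 to 662 and 628 to 679. Fibroblast markers summed to 1310 to 1356 in JHU-029 shControl, 1369 to 1412 in JHU-029 shTP63, 1415 to 1492 in FaDU shControl and 1599 to 1659 in FaDU shTP63, without overlap in either line. Immune markers summed to 2411 to 2519 and 2299 to 2418 in JHU-029 and to 2496 to 2563 and 2606 to 2920 in FaDU. The part of these markers in the results below was not tested.

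Across 18405 genes the mean contrast passed the test for 4226 (23.0%), of which 2078 rose (11.3% of all genes) and 2148 fell (11.7%). These changes were small: 182 reached 1.5-fold and 17 reached 2-fold. By the rule above, 861 genes rose (4.68%) and 894 fell (4.86%) the same way in both lines. The effect was larger in FaDU than in JHU-029 for 1500 of these 1755 genes (85.5%). The smaller of the line effects reached 1.5-fold for 25 of them and 2-fold for 0. A line tested alone means, here and below, its own contrast within 1 fit of all 12 arrays, which share an estimate of the spread. Tested alone, JHU-029 gave 580 changed genes (3.15%) and FaDU 4901 (26.6%), while the FaDU effect differed from the JHU-029 effect for 2434 (13.2%). Of the 580 genes, 468 (80.7%) had the same sign in FaDU, and of the 4901 genes 3411 (69.6%) had the same sign in JHU-029. Over all genes 56.9% had the same sign. The line effects, which share no arrays, correlated across the 18405 genes at r = 0.30 and rho = 0.24. Genes are not independent replicates, so these are descriptions.

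**Figure D1:**
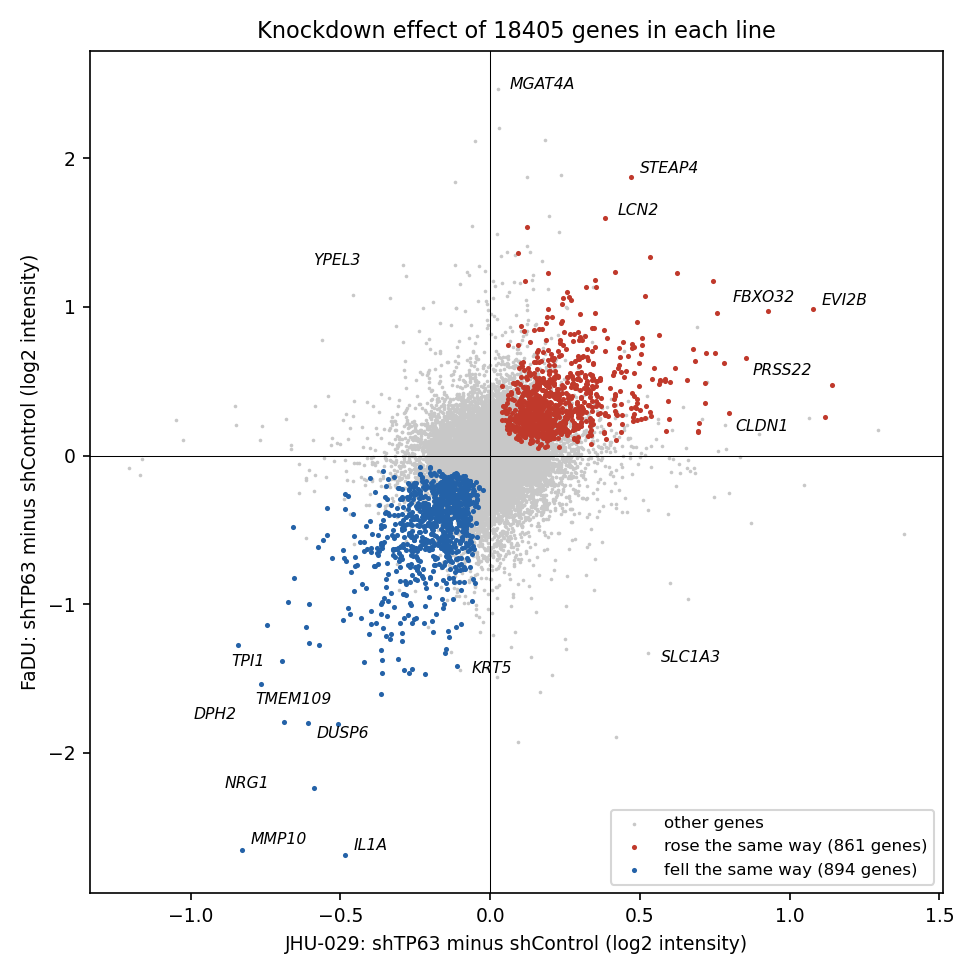
Effect of shTP63 in JHU-029 (horizontal) and FaDU (vertical) in log2 intensity, 1 point for each of 18405 genes, with genes that rose (red, 861) or fell (blue, 894) the same way coloured. The cloud is taller than it is wide, and most coloured points lie farther from 0 on the FaDU axis.

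The mean contrast thus joined different kinds of gene. Of the 4226 genes called, 1755 (41.5%) were separated the same way in both lines, 1959 (46.4%) in FaDU alone, 384 (9.09%) in JHU-029 alone and 99 (2.34%) in opposite directions. MGAT4A, an N-glycan branching enzyme, had the highest mean effect, 1.25, made of 0.03 in JHU-029 and 2.47 in FaDU. Without the FaDU shControl arrays with the extra title word, 3454 genes passed in the mean contrast and 1736 changed the same way, and 1515 of the 1755 genes were kept. Without JHU-029 shTP63 replicate 1, 2290 genes changed the same way and 1699 of the 1755 were kept. Leaving arrays out makes the separation within a line easier to meet, here and in the same-way counts below. A higher count, or genes kept, thus does not show by itself what those arrays did. The number of genes changed in JHU-029 alone was less steady, as it fell to between 229 and 273 when any of 5 of that line's arrays was left out and was 485 without shTP63 replicate 1.

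The largest fall that held in both lines, ranked by the smaller line effect, was that of TPI1, the glycolytic enzyme triosephosphate isomerase. Its log2 intensity was 12.08, 12.04 and 12.06 in JHU-029 shControl and 11.15, 11.21 and 11.28 in JHU-029 shTP63. In FaDU it was 12.18, 12.11 and 12.13 against 10.87, 10.90 and 10.82. All 6 knockdown arrays lay below all 6 control arrays. The mean effect was -1.06 (SE 0.0367, adjusted p = 6.68e-09), a 2.08-fold fall, and a second probe set of the gene gave -0.72. Of 15 measured glycolytic enzymes and isozymes, a set chosen after its values were seen, PFKM was the other one past the threshold, at -0.19, while GAPDH was at -0.02 (adjusted p = 0.735) and PGK1 at 0.07 (adjusted p = 0.174).

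MMP10, a secreted metalloprotease (stromelysin-2), had the lowest mean effect of all called genes. Its log2 intensity was 7.28, 7.13 and 7.15 in JHU-029 shControl, 6.25, 6.38 and 6.44 in JHU-029 shTP63, 10.20, 10.20 and 10.28 in FaDU shControl and 7.77, 7.51 and 7.44 in FaDU shTP63. The groups did not overlap within either line. The mean effect was -1.74 (SE 0.0596, adjusted p = 6.68e-09), from a 1.78-fold fall in JHU-029 and a 6.30-fold fall in FaDU.

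TMEM109, a membrane protein of the endoplasmic reticulum and nuclear envelope, stood at 11.21, 11.23 and 11.15 in JHU-029 shControl and at 10.42, 10.42 and 10.46 in JHU-029 shTP63. In FaDU it went from 10.98, 11.04 and 11.06 to 9.45, 9.54 and 9.49. Its mean effect of -1.15 had an SE of 0.0354, the SD of every group was under 0.05, and the fall was 1.70-fold in JHU-029 and 2.90-fold in FaDU.

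DPH2, which takes part in building diphthamide, a modified histidine of elongation factor EEF2, was at 8.98, 9.005 and 8.93 in JHU-029 shControl and 8.22, 8.35 and 8.28 in JHU-029 shTP63. In FaDU shControl it was at 8.84, 8.81 and 8.86, and in FaDU shTP63 at 7.01, 7.04 and 7.09. The mean effect was -1.24. Among the other 5 measured genes of that pathway, chosen after their values were seen, DPH3, DPH5 and DPH7 passed the mean contrast with mean effects of -0.31 to -0.23, and none of the 5 changed the same way in both lines.

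The other 11 genes among the 15 largest falls covered transport, signalling and the cell surface. SLC6A9, a glycine transporter, had a mean effect of -0.94, and PRKCH, the eta isoform of protein kinase C, of -1.04. B4GALNT1, the synthase of complex gangliosides, was at -0.83, and SDC1, the syndecan of epithelial cell surfaces, at -0.88. GSDME, a pore-forming gasdermin, fell by 0.65 in JHU-029 and by 0.82 in FaDU, and these effects did not differ past the threshold (adjusted p = 0.608). DUSP6 and NRG1 are described with growth signalling below. PPP4R4, TAF9B, SNORA75 and ERI3 complete the 15, with mean effects between -0.93 and -0.60. In each of the 15 the 3 shTP63 arrays lay below the 3 shControl arrays in each line, as the rule requires.

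**Figure D2:**
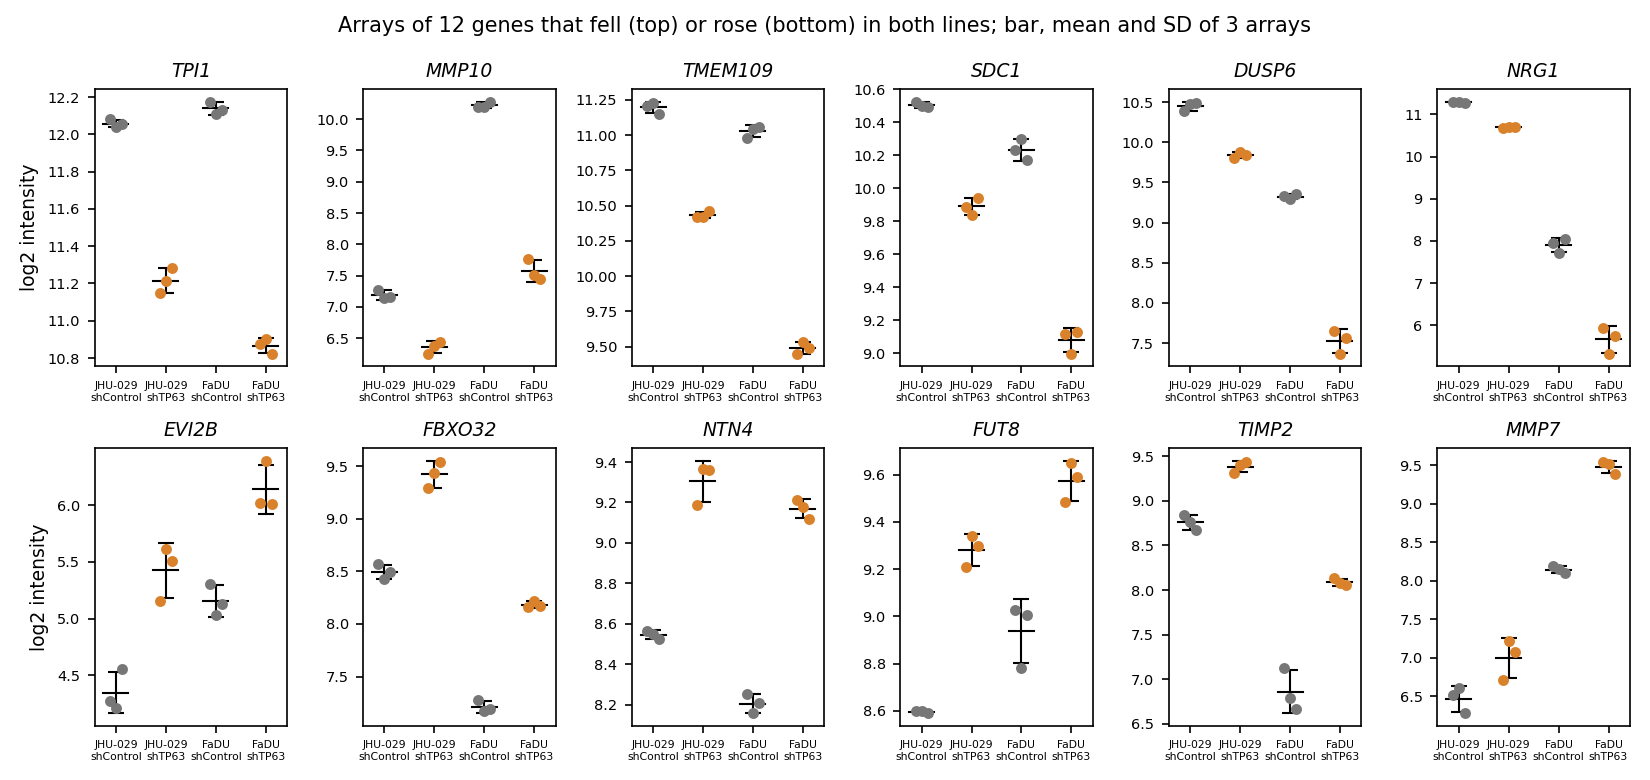
Log2 intensity in every array of 6 genes that fell and 6 that rose, with grey points for shControl, orange for shTP63, and the mean and SD of 3 arrays in black. TPI1 drops from between 12.04 and 12.18 in the control arrays to between 10.82 and 11.28, and FBXO32 rises by nearly the same amount in each line.

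The largest shared rises were closer to equal between the lines. EVI2B, a membrane protein encoded within an intron of NF1, went from 4.28, 4.22 and 4.55 to 5.16, 5.62 and 5.50 in JHU-029 and from 5.30, 5.03 and 5.13 to 6.02, 6.39 and 6.01 in FaDU. Its values lay below the array median in all 12 arrays. The mean effect was 1.03 (SE 0.0973, adjusted p = 1.43e-05).

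FBXO32, the ubiquitin ligase subunit atrogin-1 and a known FOXO target, went from 8.57, 8.43 and 8.49 to 9.29, 9.44 and 9.54 in JHU-029. In FaDU it went from 7.27, 7.17 and 7.19 to 8.16, 8.22 and 8.17. The rise was 1.90-fold and 1.96-fold, and its mean effect was 0.95 (SE 0.0482, adjusted p = 1.62e-07).

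NTN4, a netrin of basement membranes, rose from 8.57, 8.55 and 8.53 to 9.19, 9.36 and 9.36 in JHU-029 and from 8.25, 8.16 and 8.21 to 9.21, 9.18 and 9.12 in FaDU. Neither line's groups overlapped, and the mean effect was 0.86. PGM2L1, which makes glucose 1,6-bisphosphate, had a mean effect of 0.96, and NCEH1, a cholesteryl ester hydrolase, one of 0.72. Several of the others act on glycans or at the cell surface. FUT8, which adds the core fucose of N-glycans, rose by 0.68 and 0.64 in JHU-029 and FaDU, and GALNT7, which starts O-glycan chains, by 0.78 and 0.63. PRSS22, a serine protease of airway epithelium, rose by 0.86 and 0.66. RALGPS2, DENND1B, GPRC5A, RHPN2 and BTBD8 had mean effects between 0.57 and 0.70, and TIMP2 and MMP7 are given with the proteases below. Of the 15 rises, the FaDU effect differed from the JHU-029 effect past the threshold for PGM2L1, TIMP2 and MMP7.

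The promoters of 8 of these genes, the 4 largest falls and 4 largest rises with a RefSeq window used here (assembly GRCh38.p14), were searched over the 250 bases before the start on both strands. The AP-1 site TGANTCA, the TEAD site GGAATG and a p53-family pattern (CNTG, 6 bases of any kind, CNTG) were used. The 3 windows with a match are shown to place it in its sequence, with the match in capitals. They are MMP10 on the minus strand at chr11:102780629-102780878, TMEM109 on the plus strand at chr11:60913908-60914157 and NTN4 on the minus strand at chr12:95791156-95791405.
MMP10: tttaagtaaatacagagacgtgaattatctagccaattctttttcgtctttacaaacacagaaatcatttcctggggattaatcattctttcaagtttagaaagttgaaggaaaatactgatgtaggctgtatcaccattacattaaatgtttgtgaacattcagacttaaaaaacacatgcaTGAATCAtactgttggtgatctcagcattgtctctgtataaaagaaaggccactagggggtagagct
TMEM109: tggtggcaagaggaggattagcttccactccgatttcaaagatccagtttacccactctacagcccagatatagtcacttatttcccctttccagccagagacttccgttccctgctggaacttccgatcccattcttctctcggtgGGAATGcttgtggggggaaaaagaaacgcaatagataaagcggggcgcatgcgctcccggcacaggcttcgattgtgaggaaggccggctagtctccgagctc
NTN4: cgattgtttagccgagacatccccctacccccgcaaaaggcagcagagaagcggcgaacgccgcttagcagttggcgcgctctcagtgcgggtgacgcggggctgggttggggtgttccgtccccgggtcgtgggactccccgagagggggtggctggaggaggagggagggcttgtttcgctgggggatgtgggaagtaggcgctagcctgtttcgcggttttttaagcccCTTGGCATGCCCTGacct
MMP10 held an AP-1 site whose first base lay 67 bases before the start, TMEM109 a TEAD site at 103 bases and NTN4 a p53-family match at 18 bases. The windows of TPI1, SLC6A9, PGM2L1, NCEH1 and RALGPS2 held none of the 3 motifs. Over 1 window for each of 14231 tested genes, 4.9% held an AP-1 site, 10% a TEAD site and 12% a p53-family match. In the 732 windows of genes that fell the same way these shares were 3.55%, 8.47% and 11.2%, and in the 719 windows of genes that rose they were 4.73%, 10.3% and 11.5%.

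In the Hippo pathway, the subject of the series, WWC1 rose and YAP1 fell in both lines. WWC1 (KIBRA), a scaffold that activates the Hippo kinases, was at 8.11, 7.95 and 8.09 in JHU-029 shControl and 8.37, 8.40 and 8.32 in JHU-029 shTP63. In FaDU it was at 8.79, 8.60 and 8.69 against 9.26, 9.21 and 9.21. Its mean effect was 0.42 (SE 0.0448, adjusted p = 3.31e-05), and the effects of the lines did not differ past the threshold (adjusted p = 0.159). YAP1 went from 10.83, 10.82 and 10.78 to 10.55, 10.61 and 10.55 in JHU-029 and from 10.81, 10.77 and 10.79 to 10.33, 10.33 and 10.29 in FaDU, a mean effect of -0.36 (SE 0.0334). No control array of either gene overlapped a knockdown array of its line. ACTL6A was at -0.03 (adjusted p = 0.737).

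The rest of the pathway was split. Of 30 Hippo regulators 6 rose (20%) and 5 fell (16.7%) in the mean contrast, beside 11.3% and 11.7% of all genes. WWC1, WWC3 (0.23) and NF2 (-0.32) were the 3 that changed the same way. These same-way shares, 6.67% up and 3.33% down, lay near or below the 4.68% and 4.86% of all genes. RASSF6, FRMD6 and AMOTL1 had mean effects of -0.68 to -0.54 that came mostly from FaDU. Without JHU-029 shControl replicate 3 or JHU-029 shTP63 replicate 3, the 3 became 6 and 5. Of 29 YAP/TAZ target genes 11 rose (37.9%) and 4 fell (13.8%, near the 11.7% of all genes), with a median of 0.04 against 0.01 over all genes. Of the 29, 4 rose (13.8%) and 3 fell (10.3%) the same way, beside 4.68% and 4.86% of all genes. Tested alone, JHU-029 gave 3 higher and 1 lower, with a median effect of 0.04. FaDU gave 15 higher and 3 lower, with a median of 0.21. The FaDU effect differed from the JHU-029 effect for 13 of 29. TGFB2, a secreted TGF-beta ligand, rose from 8.81, 9.01 and 8.87 to 9.35, 9.31 and 9.28 in JHU-029 and from 9.40, 9.31 and 9.33 to 10.49, 10.66 and 10.60 in FaDU. FJX1, a secreted signalling protein, fell the same way with a mean effect of -0.74. CCN1 (CYR61) rose in the mean contrast by 0.23 but overlapped in at least 1 line, and CCN2 (CTGF) was at 0.17 (adjusted p = 0.0742). Of 27 SWI/SNF subunits 4 rose (14.8%) and 3 fell (11.1%), near the 11.3% and 11.7% of all genes, and 1, ARID1A (-0.24), changed the same way. Without 1 array, 1 to 3 subunits changed the same way, 3 of them without JHU-029 shControl replicate 1 or JHU-029 shTP63 replicate 1, and 3 without the FaDU shControl arrays with the extra title word. The 3 falls became 1 without any 1 of the 3 JHU-029 shControl arrays, FaDU shControl replicate 2 and, of JHU-029 shTP63, replicates 1 and 2.

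Genes linked to p63 and the basal layer mostly fell: of 38 measured, 22 were lower (57.9%, beside 11.7% of all genes) and 2 higher in the mean contrast. The median mean effect was -0.19, made of -0.04 in JHU-029 and -0.28 in FaDU, and the FaDU effect differed from the JHU-029 effect for 23 of 38. The 9 that fell the same way include S100A2, a calcium-binding protein of basal cells, and NECTIN1, an adhesion receptor. S100A2 went from 9.95, 9.89 and 9.90 to 9.42, 9.44 and 9.48 in JHU-029 and from 10.14, 10.13 and 10.11 to 8.93, 9.09 and 9.17 in FaDU. KRT5, the basal keratin, was at 13.30, 13.20 and 13.24 in JHU-029 shControl and 13.12, 13.12 and 13.17 in JHU-029 shTP63, which do not overlap but are close. In FaDU it went from 12.39, 12.39 and 12.40 to 11.02, 11.03 and 10.89. Its mean effect of -0.76 thus holds a JHU-029 effect of -0.11 (adjusted p = 0.369) and a FaDU effect of -1.41. KRT14, its partner, had a mean effect of -0.24 (adjusted p = 0.00536, but 0.0517 without the FaDU shControl arrays with the extra title word) and overlapped in JHU-029. FAT2, a basal protocadherin, was at -0.92 through FaDU alone, with a JHU-029 effect of 0.09. TFAP2C, an AP-2 transcription factor of epithelia, rose the same way, by 0.34 and 0.86. The summed intensity of the squamous markers was 38662 to 41456 in JHU-029 shControl and 35984 to 38378 in JHU-029 shTP63, and 22978 to 23303 and 15614 to 15948 in FaDU. In such cultures, fewer cells of a type and less RNA per cell cannot be told apart.

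Genes of the contacts that hold basal cells to the matrix also fell more often than they rose in the mean contrast. Of 22 hemidesmosome, integrin and basement membrane genes 11 fell (50%) and 3 rose (13.6%), beside 11.7% and 11.3% of all genes. The same way, 8 fell (36.4%, beside 4.86% of all genes) and 1 rose. Tested alone, JHU-029 gave 0 lower and 2 higher, with a median effect of -0.12. FaDU gave 11 lower and 3 higher, with a median of -0.18. The FaDU effect differed from the JHU-029 effect for 10 of 22. ITGB4, the beta subunit of the hemidesmosome integrin, was at 11.76, 11.66 and 11.72 against 11.52, 11.48 and 11.53 in JHU-029 and at 10.84, 10.94 and 10.86 against 10.27, 10.35 and 10.28 in FaDU. Its mean effect was -0.39 (SE 0.0372, adjusted p = 1.53e-05). The basement membrane component NID1 (-0.45) and, chosen after their values were seen, COL7A1 (-0.26) and LAMB3 (-0.17) and the integrin subunits ITGA3 (-0.32) and ITGA5 (-0.31) fell the same way. ITGB8, a subunit of an integrin that activates latent TGF-beta, moved the other way in both lines, from 10.31, 10.29 and 10.34 to 10.88, 11.05 and 10.98 in JHU-029 and from 7.64, 7.78 and 7.47 to 8.14, 8.17 and 8.10 in FaDU.

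Genes of desmosomes, the contacts that fasten epithelial cells to each other, moved in both directions. Of 17 genes 6 fell (35.3%) and 4 rose (23.5%), beside 11.7% and 11.3% of all genes. All but 3 of these 10 did so the same way, 4 falling (23.5%) and 3 rising (17.6%), beside 4.86% and 4.68% of all genes. The FaDU effect differed from the JHU-029 effect for 6 of 17. DSC3 and DSG3, the cadherins of basal and stratified squamous layers, fell. DSC3 went from 11.22, 11.03 and 11.07 to 10.73, 10.84 and 10.89 in JHU-029 and from 10.38, 10.32 and 10.18 to 9.23, 9.49 and 9.37 in FaDU. DSC2 and DSG2, the isoforms that simple epithelia also use, rose, as did the plakophilin PKP2. DSC2 went from 10.74, 10.72 and 10.71 to 10.83, 10.92 and 10.89 in JHU-029 and from 10.14, 10.11 and 10.05 to 10.27, 10.36 and 10.44 in FaDU. These rises were small, with mean effects of 0.21 for DSC2, 0.20 for DSG2 and 0.24 for PKP2, against -0.61 for DSC3, -0.52 for DSG3 and -0.64 for PKP4. PKP1, a plakophilin of stratified epithelia, was at -0.36 in the mean contrast and overlapped in JHU-029.

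**Figure D3:**
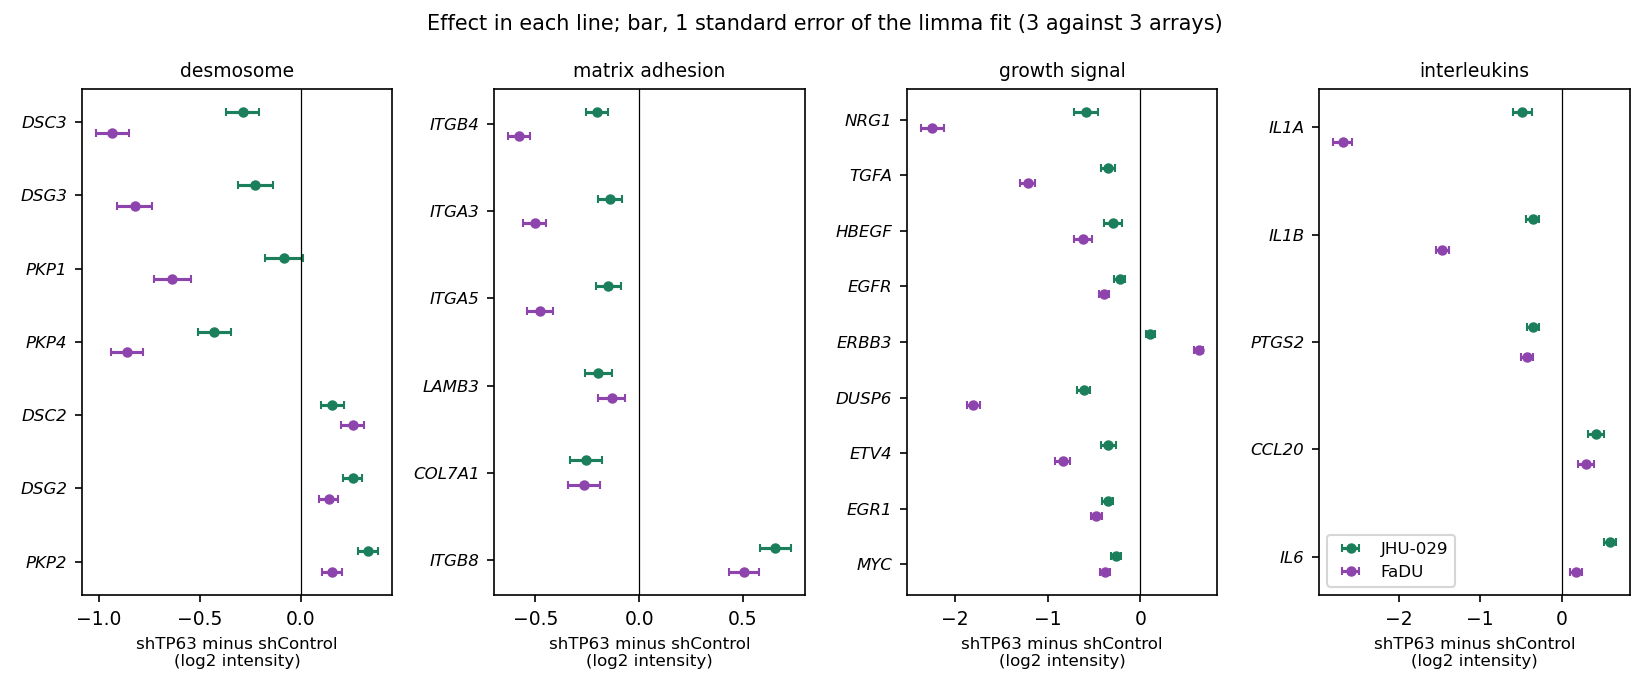
Effect of shTP63 in each line in log2 intensity for 27 genes of 4 roles, with JHU-029 in green, FaDU in purple and bars of 1 standard error. DSC3 and DSG3 lie left of 0 and DSC2, DSG2 and PKP2 right of 0 in both lines, and FaDU effects of NRG1, DUSP6 and IL1A reach -1.80 or lower.

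Simple and secretory epithelium genes rose, 13 of 33 in the mean contrast (39.4%, against 11.3% of all genes) and 0 fell. LCN2, the siderophore-binding lipocalin, and, chosen after their values were seen, the keratin KRT18 and the transcription factor FOXA1 did so the same way. LCN2 went from 7.75, 7.65 and 7.68 to 8.0004, 8.12 and 8.11 in JHU-029 and from 8.88, 9.18 and 9.07 to 10.64, 10.62 and 10.68 in FaDU, with a mean effect of 0.99. SLPI (0.74), MUC1 (0.71) and AGR2 (0.68), which encode secreted or mucin proteins, passed the mean contrast with JHU-029 effects of 0.08 to 0.17. The same-way count of 3 became 5 without any 1 of JHU-029 shControl replicate 3, JHU-029 shTP63 replicate 1 and JHU-029 shTP63 replicate 2. Of 53 keratinocyte differentiation genes 9 rose (17%) and 3 fell (5.66%), beside 11.3% and 11.7% of all genes. GRHL1 (0.56), CASP14 (0.54) and KRT80 (0.54) rose the same way and CSTA (-0.61) fell. These same-way shares, 5.66% and 1.89%, lay near or below the 4.68% and 4.86% of all genes. Without JHU-029 shTP63 replicate 1 the 4 became 9, and 6 fell in the mean contrast without JHU-029 shTP63 replicate 3 and 5 without FaDU shTP63 replicate 1. CLDN1, a tight junction claudin, rose the same way by 0.80 in JHU-029 and 0.29 in FaDU, so here the JHU-029 effect was the larger. CLDN12 rose by 0.29 and 0.47. Of 29 tight junction genes 9 rose (31%) and 3 fell (10.3%, near the share of all genes). In all, 3 changed the same way, or 5 without FaDU shControl replicate 1, alone or with replicate 2.

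Of 9 ERBB ligands measured, counted after their values were seen, NRG1, TGFA and HBEGF fell the same way and the other 6 did not pass the mean contrast. NRG1, the ligand of ERBB3 and ERBB4, was at 11.29, 11.29 and 11.26 in JHU-029 shControl and 10.68, 10.71 and 10.70 in JHU-029 shTP63. In FaDU it was at 7.95, 7.72 and 8.04 against 5.93, 5.32 and 5.74. Its mean effect was -1.41 (SE 0.0887, adjusted p = 5.94e-07), and a second probe set gave -1.11. TGFA, a ligand of EGFR, went from 8.88, 9.01 and 9.0003 to 8.61, 8.65 and 8.59 in JHU-029 and from 8.01, 8.06 and 7.92 to 6.92, 6.83 and 6.60 in FaDU. HBEGF, another ligand of EGFR, had a mean effect of -0.45, and EGFR itself, chosen after its value was seen, of -0.31. FGFBP1, which releases FGFs from the matrix, was at -0.62. ERBB3, the receptor of NRG1, rose the same way, by 0.10 in JHU-029 and 0.63 in FaDU. In all 7 of 25 ERBB and FGF genes fell (28%) and 2 rose (8%), beside 11.7% and 11.3% of all genes. The 2 rises became 1 without the FaDU shControl arrays with the extra title word. Of the 25, 5 fell (20%) and 1 rose (4%) the same way, beside 4.86% and 4.68% of all genes.

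Readouts of ERK, the kinase these receptors activate, moved in both directions. Of 32 members 10 fell (31.2%) and 5 rose (15.6%), beside 11.7% and 11.3% of all genes. Of the 32, 6 fell (18.8%, beside 4.86% of all genes) and 2 rose (6.25%, near the 4.68% of all genes) the same way. DUSP6, the phosphatase induced by ERK that inactivates it, went from 10.39, 10.47 and 10.49 to 9.80, 9.88 and 9.84 in JHU-029 and from 9.33, 9.29 and 9.35 to 7.65, 7.37 and 7.56 in FaDU. The mean effect was -1.20 (SE 0.0492, adjusted p = 3.24e-08). The transcription factors ETV4 (-0.59), EGR1 (-0.41) and, chosen after its value was seen, MYC (-0.32) also fell the same way. EPHA2, an ephrin receptor, rose the same way at 0.43, and LIF, a cytokine, rose through FaDU alone.

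The interleukin-1 cytokines IL1A and IL1B fell the same way in each line. IL1A was at 10.35, 10.41 and 10.40 in JHU-029 shControl and 9.84, 9.92 and 9.94 in JHU-029 shTP63, and at 8.52, 8.26 and 8.46 in FaDU shControl and 5.40, 5.86 and 5.92 in FaDU shTP63. The fall was 1.40-fold in JHU-029 and 6.43-fold in FaDU. IL1B went from 8.11, 8.21 and 8.12 to 7.75, 7.85 and 7.77 and from 8.52, 8.34 and 8.66 to 6.90, 7.12 and 7.10, with a mean effect of -0.91. ICAM1, an adhesion molecule induced by NF-kB (-0.52), and the receptor subunit IL1RAP (-0.29) also fell the same way. The receptors IL1R1 (0.31, adjusted p = 0.0397) and IL1RL1 (0.43, adjusted p = 0.00344) passed upward in the mean contrast but overlapped in at least 1 line. The cytokines IL6 (0.38) and CCL20 (0.36) rose the same way. Of 40 interleukin-1 and inflammation genes 10 fell (25%) and 4 rose (10%, near the 11.3% of all genes), and the median was -0.06.

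Matrix proteases and their inhibitors moved in both directions. Beside the fall of MMP10, MMP7 (matrilysin) rose from 6.51, 6.60 and 6.28 to 6.71, 7.21 and 7.08 in JHU-029 and from 8.19, 8.15 and 8.10 to 9.54, 9.51 and 9.40 in FaDU. TIMP2, an inhibitor of metalloproteases, rose from 8.84, 8.76 and 8.68 to 9.31, 9.40 and 9.44 and from 7.13, 6.79 and 6.66 to 8.13, 8.07 and 8.05. TIMP2 was the only one of 4 TIMP genes, looked up after their values were seen, past the threshold, and TIMP1 was at 0.01. ADAM12, a membrane protease, rose the same way at 0.40. MMP13 and MMP1, both collagenases, had mean effects of -0.73 and -0.61 that came from FaDU, with JHU-029 effects of 0.02 and 0.14. Of 32 list members 11 rose (34.4%) and 5 fell (15.6%), beside 11.3% and 11.7% of all genes. Of the 32, 6 rose (18.8%) and 1 fell (3.12%) the same way, beside 4.68% and 4.86% of all genes.

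Of 42 genes of amino acid supply and the ATF4 response 22 fell (52.4%) and 4 rose (9.52%) in the mean contrast. Over all genes 11.7% fell and 11.3% rose. Of the 42, 14 fell (33.3%, beside 4.86% of all genes) and 2 rose (4.76%, near the 4.68% of all genes) the same way. Tested alone, JHU-029 gave 3 lower (7.14%) and 0 higher, with a median effect of -0.07, and FaDU 24 lower and 4 higher, with a median of -0.29. ASNS, asparagine synthetase, was at 9.67, 9.60 and 9.65 in JHU-029 shControl and 9.19, 9.20 and 9.28 in JHU-029 shTP63, and at 9.90, 9.80 and 9.97 against 8.98, 8.96 and 9.05 in FaDU. SLC7A11, the cystine transporter, went from 10.36, 10.29 and 10.38 to 10.04, 10.04 and 10.09 and from 10.58, 10.44 and 10.40 to 8.85, 9.15 and 9.09. SLC1A4, which carries neutral amino acids, fell by 0.66 in JHU-029 and 0.48 in FaDU. DNAJC3 and SEL1L, which serve protein folding and disposal in the endoplasmic reticulum, rose the same way at 0.35 and 0.27. The 4 that rose became 2 without FaDU shControl replicates 1 and 2 together, or without any 1 of 6 arrays: JHU-029 shControl replicate 2, JHU-029 shTP63 replicate 3, FaDU shControl replicates 1 and 2, and FaDU shTP63 replicates 1 and 2.

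Ribosome biogenesis genes past the mean contrast all fell, 55 of 85 (64.7%, beside 11.7% of all genes) with 0 higher. Both line effects lay below 0 for 52 of the 85. The FaDU effect differed from the JHU-029 effect for 49 of the 85. The median mean effect was -0.17, made of -0.03 in JHU-029 and -0.32 in FaDU. Of the 85, 19 fell the same way (22.4%, against 4.86% of all genes), while 2 passed the test in JHU-029 alone and 67 in FaDU alone. NOB1, which matures the small subunit RNA, went from 10.97, 10.93 and 10.90 to 10.63, 10.61 and 10.66 in JHU-029 and from 10.81, 10.83 and 11.0011 to 10.04, 10.06 and 10.01 in FaDU. BYSL (-0.51) and RRP12 (-0.44), further factors of small subunit assembly, fell the same way. With line and shRNA as additive terms, 34 of the 85 passed.

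Translation factors and aminoacyl-tRNA synthetases had 20 of 49 lower (40.8%, beside 11.7% of all genes) and 1 higher. The 9 that fell the same way include EIF3B (-0.38), EIF4EBP1 (-0.37) and CARS1 (-0.33). Tested alone, JHU-029 gave 0 of the 49 lower and 0 higher, and FaDU 25 lower and 1 higher. Of 27 cholesterol and fatty acid synthesis genes 13 fell (48.1%) and 1 rose, and 8 fell the same way. Their effects were small, such as -0.29 for DHCR7, the last enzyme of cholesterol synthesis, and -0.23 for SREBF2, the pathway's transcription factor. JHU-029 alone gave 1 of the 27 lower and 1 higher, and FaDU 16 lower and 1 higher. Of 31 detoxification genes of the NRF2 type 14 fell (45.2%) and 2 rose, and GPX2, a glutathione peroxidase, fell the same way by 0.27 and 1.46. These falls came mostly from FaDU, which alone gave 15 lower and 2 higher, against 0 lower and 1 higher in JHU-029. The FaDU effect differed from the JHU-029 effect for 16 of 31. The cytosolic ribosomal proteins themselves had 3 of 57 lower (5.26%) and 2 higher (3.51%), beside 11.7% and 11.3% of all genes, 0 of them the same way. Counts of 3 or fewer here, in the mean contrast or the same way, changed by 1 or 2 when single arrays were left out.

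**Figure D4:**
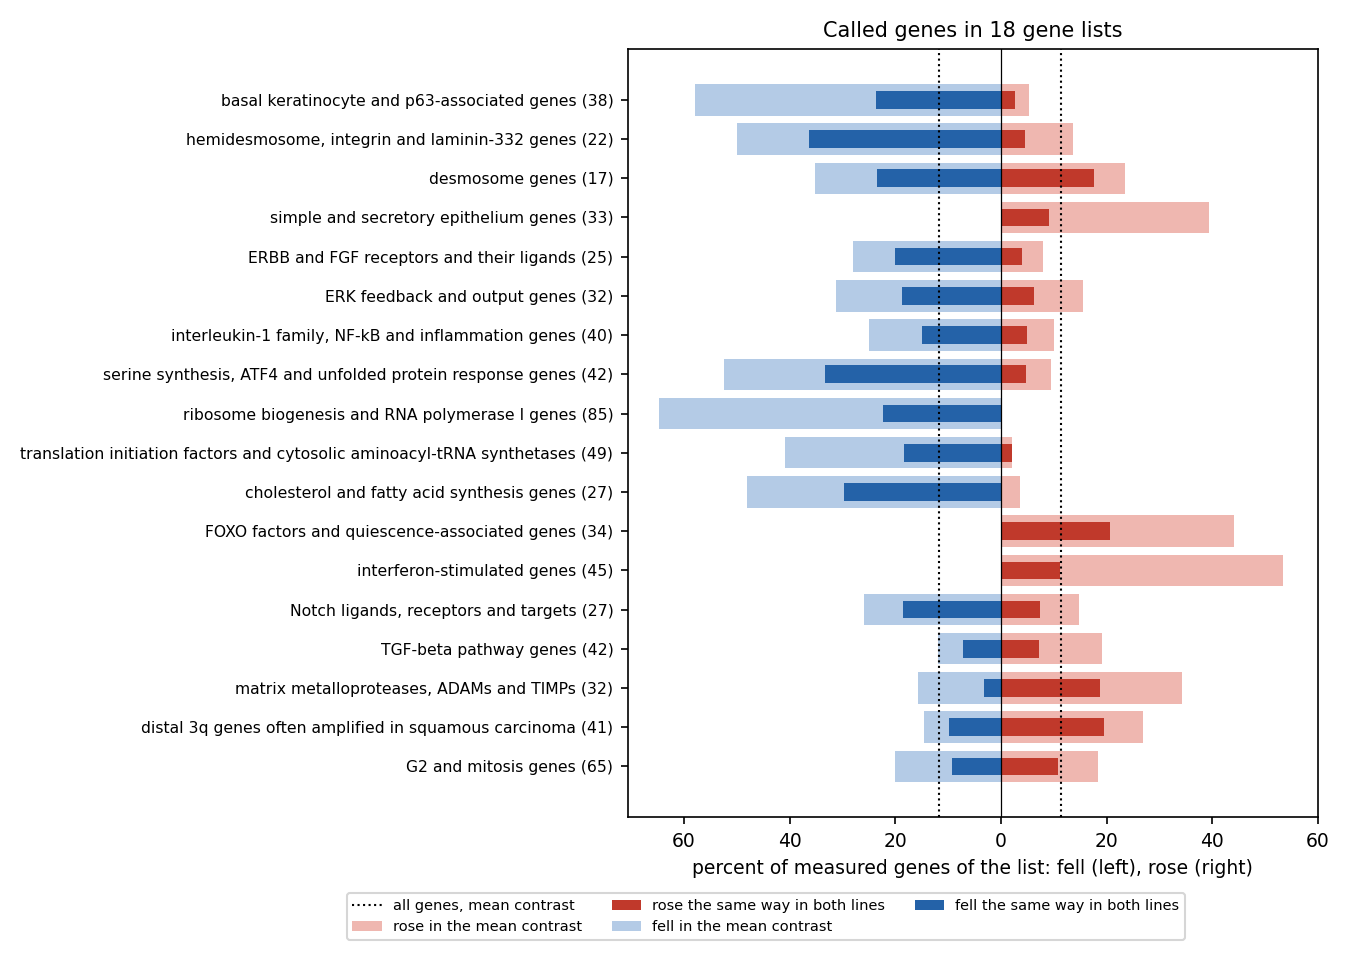
Share of the measured genes of 18 lists (number in brackets) that fell (left) or rose (right), pale bars for the mean contrast and dark bars for genes that moved alike in JHU-029 and FaDU, with dotted lines at the shares of all genes, 11.7% and 11.3%. Ribosome biogenesis reaches 64.7% on the left with 0 on the right, and interferon-stimulated genes reach 53.3% on the right.

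Of 34 FOXO factors and genes of quiescence 15 rose (44.1%, beside 11.3% of all genes) and 0 fell in the mean contrast. Of the 34, 7 rose the same way (20.6%, beside 4.68% of all genes). Tested alone, JHU-029 gave 3 higher and 2 lower, with a median effect of 0.01, and FaDU 17 higher and 1 lower, with a median of 0.26. Without FaDU shControl replicate 2, JHU-029 shTP63 replicate 3 or FaDU shTP63 replicate 1, 1 fell. FBXO32 had the largest mean effect among the 7. CDKN1B, the cell cycle inhibitor p27, rose from 9.19, 9.18 and 9.14 to 9.43, 9.42 and 9.49 in JHU-029 and from 9.93, 9.99 and 10.06 to 10.80, 10.68 and 10.81 in FaDU. The mean effect was 0.53 (SE 0.0396, adjusted p = 2.61e-06). INSR, the insulin receptor, and CPEB4, a regulator of mRNA polyadenylation, passed through FaDU, with JHU-029 effects of 0.12 and 0.20.

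The FaDU effect differed from the JHU-029 effect for 20 of 65 G2 and mitosis genes and 19 of 50 S phase genes. Tested alone, FaDU gave 24 of 65 G2 and mitosis genes lower and 2 higher and 23 of 50 S phase genes lower (46%) and 2 higher. JHU-029 gave 1 lower and 4 higher, and 0 lower and 3 higher. In the mean contrast, of 65 G2 and mitosis genes 13 fell (20%) and 12 rose (18.5%), beside 11.7% and 11.3% of all genes. Of the 65, 6 fell (9.23%) and 7 rose (10.8%) the same way, beside 4.86% and 4.68% of all genes. FOXM1, the transcription factor of the G2 programme, fell from 10.34, 10.27 and 10.26 to 9.95, 9.99 and 10.07 in JHU-029 and from 10.96, 10.88 and 10.99 to 10.01, 10.16 and 10.14 in FaDU. CDCA8 (borealin) was at -0.77 and the phosphatase CDC25B at -0.68, while ANLN (anillin) was at 0.32 and the kinesin KIF20B at 0.30. The median effect of the list was 0.09 in JHU-029 and -0.11 in FaDU. The 12 rises became 5 without the FaDU shControl arrays with the extra title word, 6 without JHU-029 shControl replicate 1 or 3, and 7 without JHU-029 shTP63 replicate 3 or FaDU shTP63 replicate 3. Of 50 S phase genes 12 fell (24%) and 2 rose (4%), with a median effect of 0.08 in JHU-029 and -0.18 in FaDU. Of the 50, 3 fell (6%) and 2 rose (4%) the same way, near the shares of all genes. The 2 that rose were CCNE2 (cyclin E2) at 0.66 and RRM2 (ribonucleotide reductase) at 0.27.

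Interferon-stimulated genes rose in the mean contrast, 24 of 45 (53.3%, beside 11.3% of all genes) with 0 falling, but the shared part was smaller. Of the 24, 5 rose the same way (11.1% of the 45, beside 4.68% of all genes). When each line was tested alone, 26 rose in FaDU and 2 in JHU-029. RSAD2 (viperin) was at 6.81, 6.58 and 6.71 in JHU-029 shControl and 6.84, 7.35 and 7.33 in JHU-029 shTP63, where replicate 1 lay next to the controls. In FaDU it went from 4.94, 5.12 and 5.44 to 5.82, 6.09 and 5.76, all below the array median. SAMD9L, an antiviral factor, had a mean effect of 0.60. GBP2, a guanylate-binding protein, was at 1.15 through a FaDU effect of 2.12, and its second probe set gave 0.70. JHU-029 shTP63 replicate 1 correlated no better with its own group than with another. Without it, and so with fewer arrays to separate, 19 of the 45 genes changed the same way. With arrays centred on their medians 2 did. Of 19 complement genes 5 rose (26.3%, beside 11.3% of all genes), C3 (1.00) and CFB (0.74) through FaDU.

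Iron and copper handling gave some of the highest mean effects. STEAP4, a metalloreductase, rose the same way, from 4.27, 4.25 and 4.22 to 4.47, 4.77 and 4.91 in JHU-029 and from 7.77, 7.81 and 7.94 to 9.71, 9.75 and 9.68 in FaDU. Its JHU-029 values all lay below the array median. CP (ceruloplasmin, 1.12) and SELENOP (selenoprotein P, 1.06) were carried by FaDU effects of 2.21 and 1.89, against JHU-029 effects of 0.03 (adjusted p = 0.972) and 0.24 (adjusted p = 0.571). The list had 10 of 31 higher (32.3%) and 10 lower (32.3%), the metallothioneins MT1X (-0.31) and MT1F (-0.28) among the latter. Over all genes 11.3% were higher and 11.7% lower.

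Of 5 Notch ligands measured, counted after their values were seen, JAG1, JAG2 and DLL1 fell the same way, while DLL4 passed upward in the mean contrast at 0.22 (adjusted p = 0.0321), with line effects of -0.03 and 0.47 in JHU-029 and FaDU. JAG1 went from 12.03, 12.01 and 12.05 to 11.78, 11.78 and 11.75 in JHU-029 and from 8.88, 9.04 and 8.84 to 7.38, 7.66 and 7.39 in FaDU, and DLL1 had a mean effect of -0.48. The receptor NOTCH2 (-0.47) and the modifier MFNG (-0.63) fell the same way, whereas RBPJ, the DNA-binding partner of Notch, rose at 0.33. Of 27 members 7 fell (25.9%) and 4 rose (14.8%), beside 11.7% and 11.3% of all genes. The 4 rises became 2 without the FaDU shControl arrays with the extra title word.

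In the TGF-beta pathway the receptor TGFBR2 rose beside TGFB2, from 9.72, 9.83 and 9.73 to 10.24, 10.26 and 10.20 in JHU-029 and from 9.39, 9.45 and 9.33 to 10.11, 10.19 and 10.13 in FaDU, with a mean effect of 0.61 (adjusted p = 6.09e-07). SKIL, a repressor of SMAD factors, rose at 0.35, and TGFB1 (-0.20) fell the same way. Of 42 members 8 rose (19%) and 5 fell (11.9%, near the 11.7% of all genes), and the rises were 5, also near the share of all genes, without any 1 of FaDU shControl replicate 1, JHU-029 shTP63 replicates 2 and 3 and, of that line's controls, replicates 1 and 3.

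Of 41 genes of distal 3q, the arm that carries TP63, 11 rose (26.8%) and 6 fell (14.6%), 8 and 4 the same way. Over all genes 11.3% rose and 11.7% fell. NCEH1 and TNFSF10 (TRAIL, 0.65) rose the most, and YEATS2, a reader of acylated histones, fell by 0.26 in JHU-029 and 0.46 in FaDU. Of 32 genes activated by p53-family proteins 9 rose (28.1%) and 11 fell (34.4%). ZMAT3 (0.49) and PLK2 (0.54) rose, and SFN (14-3-3 sigma, -0.62) and AEN (-0.45) fell, the same way. The 11 became 7 without the FaDU shControl arrays with the extra title word.

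Some genes that passed the test in both lines moved in opposite directions, 34 of the 370 called in each. SLC1A3, a glutamate and aspartate transporter, rose by 0.53 in JHU-029 and fell by 1.33 in FaDU. YPEL3, linked to growth arrest, fell by 0.29 in JHU-029 and rose by 1.28 in FaDU, and its mean effect of 0.49 passed the test (adjusted p = 7.31e-06). CA2, KITLG and SESN3 had line effects of 0.66 and -0.97, 0.60 and -0.85, and -0.56 and 0.78 in JHU-029 and FaDU. Their mean effects lay between -0.15 and 0.11 and did not pass the test.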

How the data were processed

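RNA samples, 12 in all, were measured on Affymetrix gene arrays, 1 array each, and each array was placed in a group by its description. The deposited values are linear intensity per probe set, made by the authors with RMA in R 2.15.1 per the submitters' processing notes, over 32321 probe sets. The design had assumed log2 values, so log2 of the intensity was taken here with no pseudocount. GEO's platform annotation gave 1 gene symbol for 19159 probe sets, several for 1387 and none for 11775. The probe set with the highest mean stood for each of 18405 genes. Slide and scan dates were not used here.

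A limma fit (version 3.58.1, R 4.3.3) with 4 group means gave the JHU-029, FaDU, mean and difference contrasts, with Benjamini-Hochberg adjusted p-values over all genes, and was tested on simulated data. Genes named were the 15 largest rises and falls ranked by the smaller line effect, the 5 highest and lowest mean effects, up to 4 per direction in each list, the 5 largest opposite effects, and WWC1, YAP1, CCN1, CCN2, ACTL6A, KRT5 and KRT14. The members and gene lists were chosen with earlier results of these data known. Genes said to be chosen after their values were seen, and marker genes, are outside that rule. Alternatives changed the scale, normalization, filter, probe set choice, variance model, pairing, line model, definition and arrays. The number of arrays limits the precision.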

Additional observations from a re-analysis of the deposited data

Results flagged for a closer look

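Several of the genes described above had a FaDU effect that differed from the JHU-029 effect, by the interaction term of the limma fit with an adjusted p under 0.05 over all genes. The value beside each gene is the FaDU effect minus the JHU-029 effect in log2 intensity, from 3 against 3 arrays in each line, and no explanation was tested. The lines moved in opposite directions for SLC1A3 (-1.86), CA2 (-1.63), KITLG (-1.46), SESN3 (1.34) and YPEL3 (1.57).

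Genes whose FaDU effect was the lower one, most of them falling further in FaDU, came in a range of sizes. The widest gaps were those of IL1A (-2.2), FAT2 (-2.02), MMP10 (-1.83), NRG1 (-1.65), MMP13 (-1.51), MMP1 (-1.49), KRT5 (-1.3), GPX2 (-1.19), DUSP6 (-1.19), JAG1 (-1.18), FJX1 (-1.17), SLC7A11 (-1.16), FRMD6 (-1.15), IL1B (-1.1), DPH2 (-1.1) and NECTIN1 (-1.01). Next in size were RASSF6 (-0.94), AMOTL1 (-0.91), SFN (-0.89), CDCA8 (-0.87), TGFA (-0.87), CDC25B (-0.85), TMEM109 (-0.77), MT1F (-0.76), ICAM1 (-0.75), MFNG (-0.72), ERI3 (-0.7), NOTCH2 (-0.7), PRKCH (-0.69), PPP4R4 (-0.66), DSC3 (-0.64), CSTA (-0.64), BYSL (-0.62), DSG3 (-0.6) and S100A2 (-0.6). Gaps of a middle size were found for AEN (-0.56), FOXM1 (-0.56), PKP1 (-0.55), NOB1 (-0.54), SDC1 (-0.54), EIF4EBP1 (-0.54), FGFBP1 (-0.53), RRP12 (-0.5), ETV4 (-0.49), ASNS (-0.48), EIF3B (-0.45), MT1X (-0.44), PKP4 (-0.43) and TPI1 (-0.43). The smallest were those of TAF9B (-0.4), SLC6A9 (-0.39), KRT14 (-0.38), ITGB4 (-0.38), NF2 (-0.32), ARID1A (-0.31), B4GALNT1 (-0.31) and YAP1 (-0.24).

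Other genes had the higher effect in FaDU. Wide gaps were found for AGR2 (1.07), CDH5 (1.11), SLPI (1.13), LCN2 (1.22), MUC1 (1.26), STEAP4 (1.4), CPEB4 (1.42), LIF (1.46), CFB (1.61), SELENOP (1.65), C3 (1.75), GBP2 (1.94), CP (2.18) and MGAT4A (2.44). Narrower ones were those of TGFBR2 (0.28), DNAJC3 (0.29), SEL1L (0.29), SKIL (0.35), RBPJ (0.35), PLK2 (0.38), PGM2L1 (0.43), CDKN1B (0.5), DLL4 (0.5), TFAP2C (0.52), ERBB3 (0.52), TIMP2 (0.6), IL1RL1 (0.77), MMP7 (0.8), CCNE2 (0.81), TGFB2 (0.82) and INSR (0.89). A rise that was larger in JHU-029 than in FaDU was found for CLDN1 (-0.51), IL6 (-0.42), KRT80 (-0.36) and KIF20B (-0.28).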

How the results depend on the processing

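Of the genes named by the rule, 0 changed sign where either value passed the threshold, in any alternative run. The medians of 6 gene lists, which carry no test and lie near 0, did change sign: ERK readouts (-0.0266 to 0.025), connexins (-0.0431 to 0.0346), p53-family targets (-0.0126 to 0.0337), retinol genes (-0.029 to 0.0664), ribosomal proteins (-0.0113 to 0.0194) and serpins (-0.1143 to 0.0376). Of the results for named genes, 6343 kept direction and side of the threshold, 396 lost the call and 6 gained it. The 4226 genes of the mean contrast became 2791 in an additive model of line and shRNA, and 3477 to 4080 when each array was left out in turn. The 1755 genes changed the same way became 336 when each line had to pass alone and 3650 when arrays could overlap. They became 1804 to 2290 when each array was left out, where fewer arrays make the separation easier to meet. A further definition, an unadjusted p under 0.05 in each line, gave 1323. The 580 genes of JHU-029 became 907 among genes above the median of all probe sets, 1015 with a trend in the variance prior and 2017 with array weights, with 229 to 626 when each array was left out. The 4901 genes of FaDU became 4322 to 4926, and the 2434 genes whose effect differed between the lines 1704 to 2510, when each array was left out. The causes of these shifts were not tested.

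Whether replicate numbers pair the arrays is not known, and no array was paired in the report. Deviations of same-numbered arrays from their group means correlated at -0.339 to 0.013. With 3 arrays in a group these values cannot decide it. With a fixed replicate block 172 genes passed in JHU-029 and 1396 in the difference, and 1541 changed the same way. A random replicate block (consensus correlation -0.13) left 1723.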
